A study of Sus scrofa with 31 samples.

Results

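HSPB1 encodes HSP27, a small heat shock protein that binds unfolding proteins and holds them for refolding. It was chosen by its known level in these samples, together with HSPA8 (the constitutive HSP70 family chaperone), HSPH1 (an HSP110 exchange factor for HSP70), DNAJB1 (a J domain partner that delivers clients to HSP70) and HSP90AA1 (the inducible form of cytosolic HSP90). Of these 5 genes, 1 (HSPB1) had an identifier in the gene name column of the study's supplementary tables, and it is the gene described here in full. The other 4 were identified only from the reference gene names, and their values are given as members of a list of 53 heat shock and chaperone genes found among the 31907 genes counted. All levels and differences of these 5 genes are descriptions without a test, because the genes were picked with results of these samples known.

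Heat shock genes are induced by heat, unfolded proteins and other stress through heat shock factors, which bind repeated GAA units in their promoters, while HSPA8 is expressed in cells at rest as well. Immediate early genes such as FOS, JUN and EGR1 are transcribed within minutes of a stimulus, and both groups of genes are known to be induced when cells are taken out of a tissue. For that reason the immediate early genes were read beside HSPB1, together with the question of whether such a response could follow the brain region. The heat shock and immediate early lists were chosen with earlier results of these data known, so their p-values and shares are not independent evidence.

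The samples were from male piglets aged 24 to 26 days, crosses of Large White × Landrace sows with Danish Duroc semen, born in standard commercial housing or in pens with more freedom, and sedated and anaesthetised before tissue was taken. The 31 libraries from 15 pigs comprised microglia of the cerebellum, the frontal cortex and the hippocampus (n = 8 each), alveolar macrophages (n = 3) and whole hippocampus (n = 4). Microglia were freed from minced tissue on ice with 40 passes of a Dounce pestle, cleared of myelin on Percoll, labelled for 30 min at room temperature and sorted as CD11b high, CD45 low cells. Alveolar macrophages were sorted from lung lavage as F4/80 positive, CD163 low cells, and hippocampal tissue went into RNAlater without dissociation or sorting. No group was untreated or stressed on purpose, and the labels give neither the housing nor the time from death to sorting for a library.

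Reads counted on genes ranged from 18438494 to 43477403 per library, with medians of 23930658 in cerebellar, 27360093 in hippocampal and 29274853 in frontal cortex microglia. Levels are in CPM, the reads on a gene relative to all counted reads of its library, corrected by TMM factors, which assume that most genes do not change. The 5 microglia markers (TMEM119, P2RY12, CX3CR1, TREM2, CSF1R) summed to 3120 to 7000 CPM in the microglia, 126 to 285 CPM in alveolar macrophages and 103 to 142 CPM in tissue. Of the 5 alveolar macrophage markers, CD163, MRC1 and PPARG were detected in all 3 macrophage libraries, while FABP4 and MARCO had 0 counts in each. The 4 T and B cell markers summed to 464 to 955 CPM in those libraries against 13.4 to 71.8 CPM in microglia. Among the microglia, 4 libraries held over 100 CPM of the 6 neuron markers, namely cerebellum of pigs 12583 and 12902 and frontal cortex of pigs 12599 and 12891, and results are also given without them.

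Letter matches to heat shock elements were looked for in the 300 bases before the annotated start, read from the pig genome (RefSeq, Sscrofa11.1). Each window is written 5′ to 3′ on the gene's own strand. Capitals mark matches to a pair of GAA units facing each other, GAANNTTC or TTCNNGAA, each of which reads the same on both strands. HSPB1 (minus strand) had 1 such match, starting 237 bases before its start, and HSPA8 (minus strand) had 4 that overlapped in 2 blocks. The inducible HSP70 gene HSP70.2 (plus strand), which is described below as HSPA1A/HSPA1B, had 1 match, starting 289 bases before its start.

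HSPB1, chr3:10039442-10039741: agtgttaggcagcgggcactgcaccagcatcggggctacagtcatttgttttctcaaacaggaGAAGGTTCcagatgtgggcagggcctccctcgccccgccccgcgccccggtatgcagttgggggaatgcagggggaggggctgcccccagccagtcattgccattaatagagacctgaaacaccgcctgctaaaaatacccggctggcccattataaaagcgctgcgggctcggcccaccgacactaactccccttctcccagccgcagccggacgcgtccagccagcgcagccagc

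HSPA8, chr9:49986761-49987060: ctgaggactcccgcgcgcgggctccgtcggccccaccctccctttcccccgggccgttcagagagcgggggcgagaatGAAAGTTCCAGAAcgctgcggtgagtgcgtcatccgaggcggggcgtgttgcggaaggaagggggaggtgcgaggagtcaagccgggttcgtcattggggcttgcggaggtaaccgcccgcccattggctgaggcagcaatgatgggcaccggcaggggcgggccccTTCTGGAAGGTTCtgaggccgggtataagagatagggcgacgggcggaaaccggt

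HSP70.2, chr7:23925629-23925928: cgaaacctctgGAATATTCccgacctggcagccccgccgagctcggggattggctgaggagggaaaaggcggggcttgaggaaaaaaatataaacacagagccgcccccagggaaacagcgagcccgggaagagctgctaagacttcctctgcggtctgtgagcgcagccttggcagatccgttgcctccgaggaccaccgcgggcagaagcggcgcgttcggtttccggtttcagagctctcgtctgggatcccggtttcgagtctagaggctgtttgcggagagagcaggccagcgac

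Each block in HSPA8 held the 3-unit element, GAANNTTCNNGAA or its reverse complement TTCNNGAANNTTC, which was found in 78 of 20663 protein-coding promoters of the same length (0.377%). A 2-unit match as in HSPB1 was found in 2695 of them (13.0%). The windows of HSPH1, DNAJB1 and HSP90AA1 held neither. The matches are letters in a window that depends on the annotated start, not measured binding. Bases outside the windows were not searched, so an empty window does not show that a gene lacks such elements.

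HSPB1 was highest in alveolar macrophages, next in cerebellar microglia and lowest in frontal cortex microglia, with hippocampal microglia and hippocampal tissue between. The gene (ENSSSCG00000039962) lies on chromosome 3 from 10038074 to 10039441 on the minus strand, and 574 to 7717 reads per library were counted on it. In the 8 cerebellar libraries it ranged from 45.1 to 95.6 CPM with a median of 65.8. In frontal cortex microglia it ranged from 22.1 to 47.8 CPM with a median of 38.8.

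In hippocampal microglia HSPB1 ranged from 40.0 to 49.7 CPM with a median of 44.3, the narrowest spread of the microglia. The 3 alveolar macrophage libraries had 119, 152 and 165 CPM, above all 24 microglia libraries. The 4 tissue libraries had 35.7, 37.8, 40.9 and 45.2 CPM. As group means the order was 145 ± 23.5 (SD, n = 3) in macrophages, 66.7 ± 18.2 (n = 8) in cerebellar microglia, 44.7 ± 4.13 (n = 8) in hippocampal microglia, 39.9 ± 4.13 (n = 4) in tissue and 36.0 ± 8.15 CPM (n = 8) in frontal cortex microglia. Only the macrophages stood clear of every other group, since each neighbouring pair among the other 4 groups overlapped. Of the 8 cerebellar libraries, 6 were above every frontal cortex library and 6 above every hippocampal library. The cerebellar libraries of pigs 12583 and 12902, with 45.1 and 47.0 CPM, were the exceptions.

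**Figure D1:**
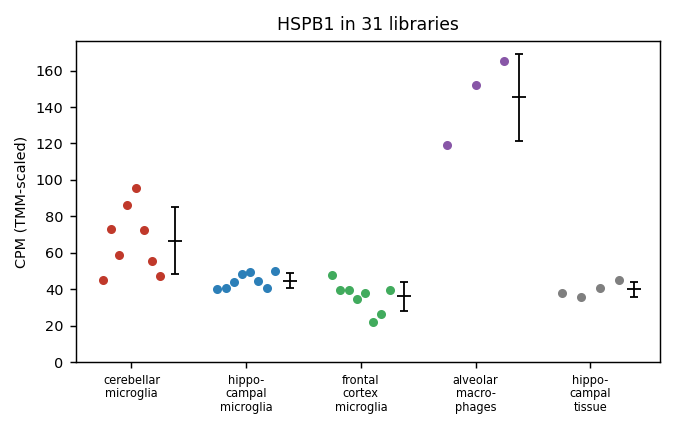
HSPB1 level in CPM (TMM-scaled) in each of the 31 libraries, by group, with the bar giving the mean ± SD. The 3 alveolar macrophage libraries lie from 119 to 165 CPM, above all others, and 6 of 8 cerebellar libraries lie above every other microglia library.

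The fitted log2 difference of HSPB1 was 0.89 ± 0.15 (SE) between cerebellar and frontal cortex microglia, a 1.85-fold higher level in the cerebellum. It was 0.58 ± 0.15 between cerebellum and hippocampus and -0.31 ± 0.14 between frontal cortex and hippocampus, where it was -0.14 without the frontal cortex library of pig 12847. Both exceptions in the cerebellum were libraries with over 100 CPM of neuron markers. Without the 4 such microglia libraries the cerebellum spanned 55.3 to 95.6 CPM (n = 6) and the frontal cortex 22.1 to 39.6 CPM (n = 6), which no longer overlapped, and the log2 difference was 1.05. These libraries were left out after the data were seen. They also included the highest frontal cortex library (pig 12599, 47.8 CPM), so the lost overlap is a description only. Of other markers, which were not compared by a test, the 6 of astrocytes summed to a median of 344 CPM (219 to 488) in cerebellar, 291 (174 to 461) in hippocampal and 232 CPM (184 to 412) in frontal cortex microglia, none of the 6 being at 0 throughout, with ranges that overlapped. The 5 oligodendrocyte markers summed to a median of 213 CPM (165 to 807) in cerebellar, 205 (162 to 444) in hippocampal and 333 CPM (177 to 1860) in frontal cortex microglia. The 4 cerebellar granule neuron markers summed to 5.87 to 113 CPM in cerebellar microglia and to at most 30.7 CPM in microglia of the other regions. In hippocampal tissue they summed to 27.3 to 34.9 CPM, so these markers were not confined to the cerebellum. The part of these in the HSPB1 difference was not tested.

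Microglia of more than 1 region came from the same animal in several pigs, which allowed HSPB1 to be compared within the animal. It was higher in the cerebellum than in the frontal cortex in 6 of 6 pigs. The cerebellar level was 1.52 times the frontal cortex level in pig 12599, 1.70 times in pig 12750, 2.26 times in pig 12758, 3.28 times in pig 12847, 2.08 times in pig 12891 and 1.19 times in pig 12902. Against the hippocampus the cerebellum was higher in 4 of 4 pigs, by 1.47 times in pig 12750, 2.12 times in pig 12758, 1.93 times in pig 12821 and 1.78 times in pig 12847. The frontal cortex was below the hippocampus in 3 of 3 pigs, with 22.1 against 40.7 CPM in pig 12847 and smaller gaps in pigs 12750 and 12758.

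**Figure D2:**
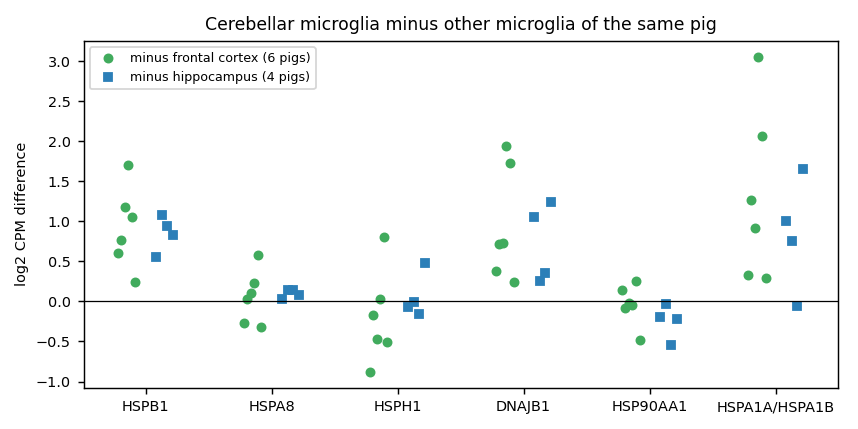
Difference in log2 CPM between cerebellar microglia and frontal cortex (circles, 6 pigs) or hippocampal microglia (squares, 4 pigs) of the same pig, for 6 heat shock genes. All HSPB1 and DNAJB1 points lie above 0, the frontal cortex points of HSPA8 and HSPH1 lie on both sides of 0, and the 4 hippocampal HSP90AA1 points lie below 0.

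Hippocampal tissue, which was neither dissociated nor sorted, held about as much HSPB1 as the microglia sorted from it, with a fitted log2 difference of 0.16 ± 0.18. In pig 12821 the microglia had 49.5 and the tissue 37.8 CPM, in pig 12829 44.6 and 35.7 CPM, in pig 12847 40.7 and 40.9 CPM, and in pig 12872 49.7 and 45.2 CPM. Tissue holds many cell types, with 4540 to 5910 CPM of astrocyte and 11900 to 23300 CPM of oligodendrocyte markers, so fewer expressing cells and less RNA per cell cannot be told apart in it. Dissociation and cell type cannot be told apart in this comparison either. The sign is not fixed by the data, because with RLE scaling in place of TMM the difference was -0.06 and with no scaling 0.38.

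Against alveolar macrophages HSPB1 was lower in microglia by a log2 difference of -1.61 ± 0.15, a fold of 3.05. In pig 12821 the hippocampal microglia had 49.5, the cerebellar microglia 95.6 and the macrophages 119 CPM, and in pig 12829 the hippocampal microglia had 44.6 and the macrophages 152 CPM. Macrophages were taken from lavage and did not pass through the Dounce and Percoll steps, and they carried T and B cell markers as given above, whose part was not tested.

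The other heat shock genes did not share one regional order. The means of DNAJB1 and of HSPA1A/HSPA1B, described below, followed HSPB1 in direction, while HSPA8 showed little difference between regions. HSPH1 had its highest mean among microglia in the frontal cortex (62.2 CPM, against 52.3 in the cerebellum and 51.4 in the hippocampus), with overlapping ranges. HSP90AA1 had its lowest mean among microglia in the cerebellum. Per kilobase of RefSeq exon, whose models may lack untranslated ends, the mean level over the 24 microglia libraries was 859 CPM for HSP90AA1, 273 for HSPA8, 78.8 for HSPB1, 54.9 for DNAJB1 and 15.0 for HSPH1. HSPB1 ranked 6 of the 51 heat shock genes with a length there, which left out HSPA1A/HSPA1B.

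DNAJB1 (chromosome 2, 64761672 to 64764482, plus strand) ranged from 54.6 to 140 CPM (median 91.3) in cerebellar, from 26.2 to 118 CPM (median 55.0) in frontal cortex and from 42.7 to 83.7 CPM (median 59.0) in hippocampal microglia. The regions overlapped, and the log2 difference was 0.71 ± 0.23 between cerebellum and frontal cortex and 0.64 ± 0.23 between cerebellum and hippocampus. Within pigs it was higher in the cerebellum than in the frontal cortex in 6 of 6 and than in the hippocampus in 4 of 4. DNAJB1 was at 48.7, 59.0 and 63.4 CPM in macrophages and at 36.4, 42.4, 42.5 and 51.4 CPM in tissue, and all cerebellar libraries lay above the tissue. Without the 4 libraries named above, the log2 difference between cerebellum and frontal cortex was 0.42.

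HSPA8 (chromosome 9, 49982278 to 49986760, minus strand) was close to level among the microglia, with 482 to 757 CPM in cerebellar, 418 to 746 CPM in frontal cortex and 490 to 761 CPM in hippocampal libraries. The log2 difference between cerebellum and frontal cortex was 0.02 ± 0.11. Macrophages had 578, 681 and 775 CPM, within the range of the microglia apart from the highest. Tissue had 1070, 1140, 1160 and 1240 CPM, above every sorted library, and the log2 difference of hippocampal microglia from tissue was -0.87 ± 0.13.

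HSPH1 (chromosome 11, 7733874 to 7759528, minus strand) ranged from 39.5 to 62.9 CPM in cerebellar, 29.6 to 90.2 CPM in frontal cortex and 39.8 to 64.0 CPM in hippocampal microglia. In macrophages it was at 86.8, 88.4 and 123 CPM, and in tissue at 272, 275, 326 and 343 CPM, above all sorted libraries. The log2 difference from tissue was -2.57 ± 0.18, a fold of 5.95. Microglia thus held less HSPH1 than whole hippocampus in 4 of 4 pigs.

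HSP90AA1, on an unplaced scaffold, ranged from 1490 to 2090 CPM in cerebellar, 1250 to 2560 CPM in frontal cortex and 1950 to 2680 CPM in hippocampal microglia. Its log2 difference was -0.43 ± 0.11 between cerebellum and hippocampus, opposite in sign to that of HSPB1, and the cerebellum was lower in 4 of 4 pigs. Tissue had 2710, 2980, 3660 and 3910 CPM and macrophages 1340, 1490 and 1670 CPM. Tissue lay above every microglia library, and the macrophages lay below every hippocampal one.

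**Figure D3:**
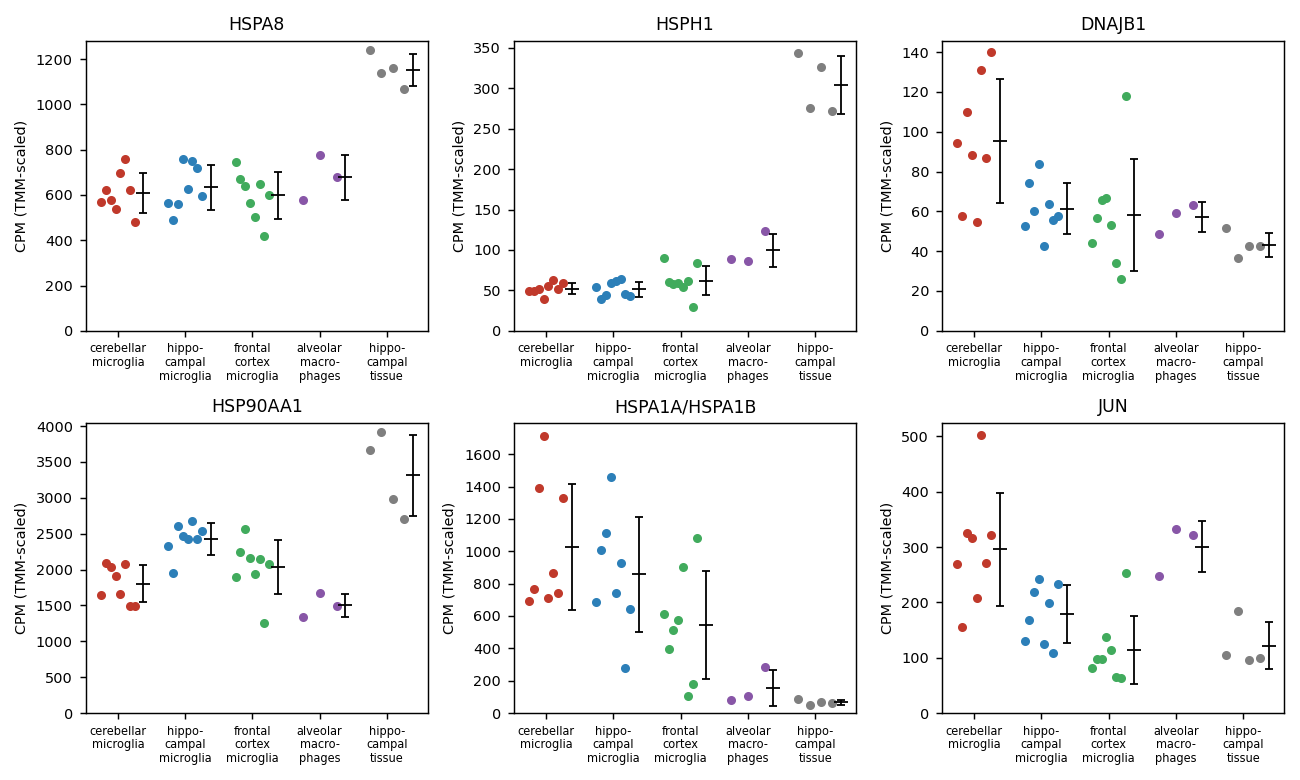
Levels in CPM (TMM-scaled) of HSPA8, HSPH1, DNAJB1, HSP90AA1, HSPA1A/HSPA1B and JUN in each library by group, with the mean ± SD beside the points. HSPA8, HSPH1 and HSP90AA1 are highest in tissue, HSPA1A/HSPA1B is lowest there, and DNAJB1 and JUN have their highest mean among microglia in the cerebellum.

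The stress-inducible HSP70 gene stood apart from these in its difference from tissue, while its means had the regional order of HSPB1. They were 1030, 857 and 546 CPM in cerebellar, hippocampal and frontal cortex microglia. The identifier ENSSSCG00000029160, which the study pairs with human HSPA1A and HSPA1B and RefSeq names HSP70.2, ranged from 690 to 1710 CPM in cerebellar, 104 to 1080 CPM in frontal cortex and 276 to 1460 CPM in hippocampal microglia. Tissue had 48.5, 64.8, 68.1 and 84.2 CPM and macrophages 78.3, 105 and 285 CPM. Every microglia library was above every tissue library, whereas the frontal cortex and hippocampal microglia overlapped with the macrophages. By the quasi-likelihood test of edgeR, its p adjusted by Benjamini-Hochberg across the 11633 genes tested, it was higher in hippocampal microglia than in tissue by a log2 difference of 3.68 ± 0.55 (adjusted p = 1.07e-06), in 4 of 4 pigs. It was higher in microglia than in macrophages by 2.33 ± 0.55 (adjusted p = 0.000648). Between the 3 regions the F test gave an adjusted p of 0.215, although the cerebellum was above the frontal cortex in 6 of 6 pigs and the fitted log2 difference was 0.91 ± 0.37. The difference was 0.26 ± 0.37 between cerebellum and hippocampus and -0.65 ± 0.37 between frontal cortex and hippocampus. In pig 12821 the cerebellar microglia had 713 and the hippocampal microglia 739 CPM. Reads from near-identical HSP70 copies cannot be assigned with certainty, so this value may sum more than 1 gene. Sorted and unsorted material, and dissociation and cell type, cannot be told apart here either.

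The spread of these genes within a region did not single out the same libraries for all of them. In the frontal cortex, pigs 12847 and 12891 had the lowest HSPB1 (22.1 and 26.6 CPM), DNAJB1 (34.2 and 26.2 CPM) and HSPA1A/HSPA1B (104 and 177 CPM). Pig 12902 had the highest DNAJB1 (118 CPM) and HSPA1A/HSPA1B (1080 CPM) in that region but an HSPB1 of 39.5 CPM, near the middle. In the cerebellum, the library with the most HSPB1 (pig 12821, 95.6 CPM) had the least DNAJB1 (54.6 CPM). Between cerebellum and frontal cortex, the ratio within pigs was largest in pig 12847 and smallest in pig 12902 for HSPB1, DNAJB1, HSPA1A/HSPA1B and JUN. For HSPA8, HSPH1 and HSP90AA1 it was largest in pig 12891. With each region's mean removed, Pearson's r over the 24 microglia libraries was 0.86 between DNAJB1 and JUN and 0.66 between DNAJB1 and HSPA1A/HSPA1B. For HSPB1 it was 0.05 with DNAJB1, 0.205 with JUN and 0.49 with HSPA1A/HSPA1B.

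Of the heat shock list without the 5 chosen genes, 48 genes had an identifier and 47 were tested, that is, exceeded 10 CPM throughout some group, which HSPA1L did not. In the F test of the 3 regions with edgeR at an adjusted p under 0.01, 0 of 47 were called, against 2.03% of all genes tested (236 of 11633), and 10 (21.3%) had an unadjusted p under 0.05, beside 25.9% of all genes. DESeq2 called 2 of the list (4.26%), below its share of 6.80% of all genes. They were BAG5 and DNAJA2, which had the lowest adjusted p by edgeR (0.0155 and 0.0193) and were lower in the cerebellum, by log2 differences of -0.49 ± 0.11 against the hippocampus for BAG5 and -0.40 ± 0.10 against the frontal cortex for DNAJA2. BAG5 is a cofactor of HSP70 and DNAJA2 a J domain partner of it. The median log2 difference of the 47 genes between cerebellum and frontal cortex was -0.09, beside -0.03 over all genes tested, with 13 genes positive and 34 negative.

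**Figure D4:**
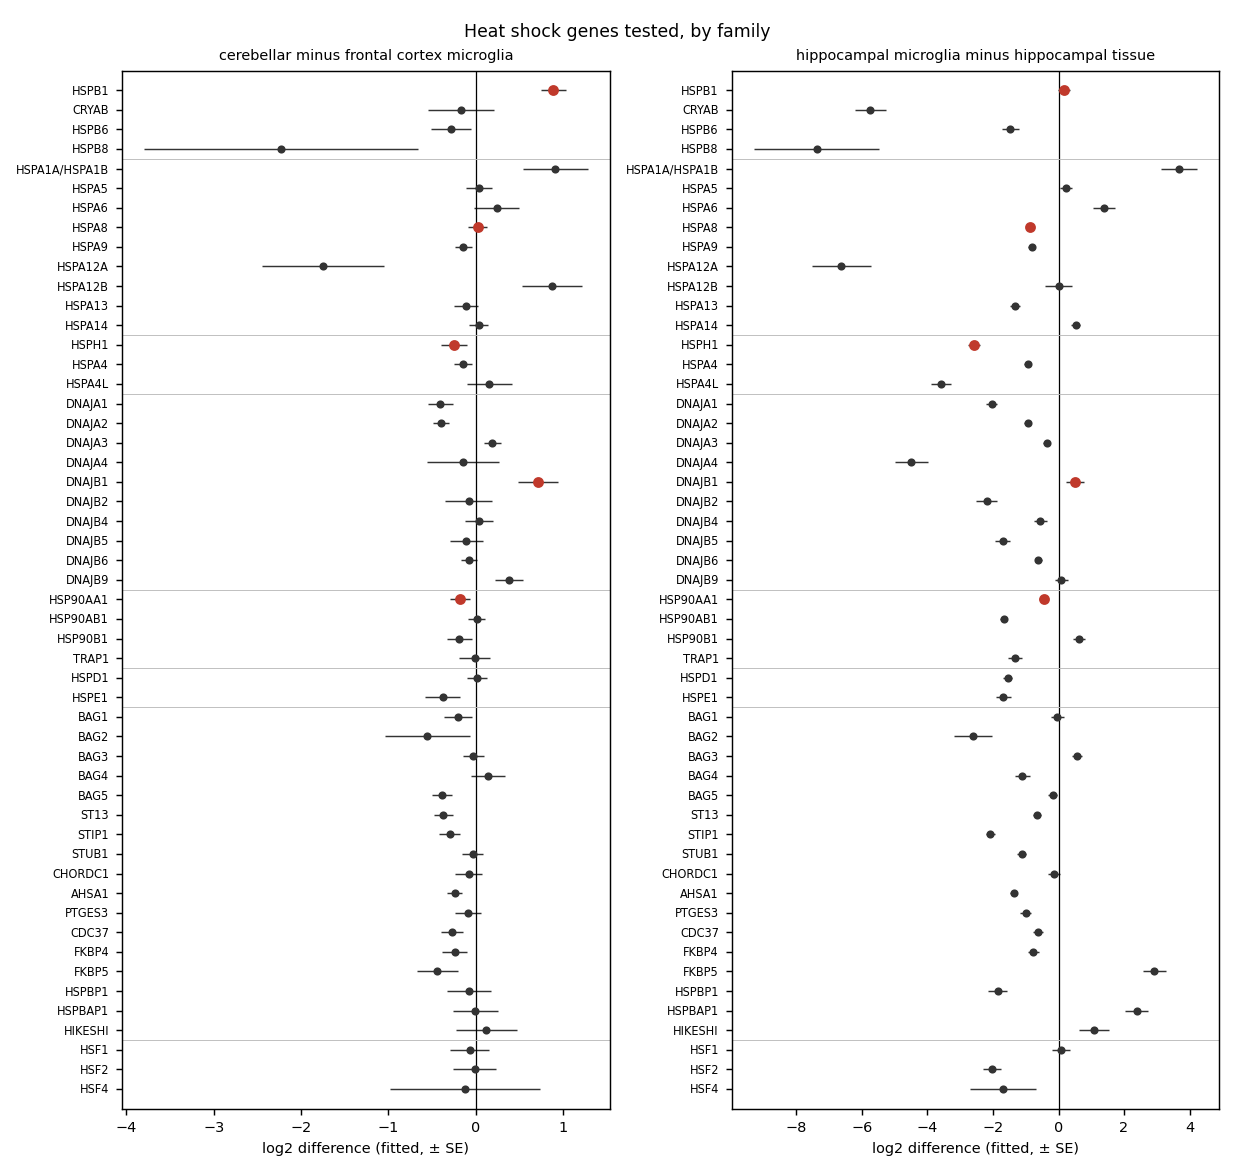
Fitted log2 differences (points, bars ± SE) of the tested heat shock genes, grouped by family, for cerebellar minus frontal cortex microglia and hippocampal microglia minus hippocampal tissue. The 5 chosen genes are in red. HSPB1 lies at 0.89 in the first panel and at 0.16 in the second, where HSPA1A/HSPA1B lies farthest to the right at 3.68.

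Between microglia and alveolar macrophages, 3 of the 47 genes (6.38%) were higher in microglia at an adjusted p under 0.01 and over 3-fold, beside 12.2% of all genes tested. These were HSPA1A/HSPA1B, the J domain gene DNAJB5 (2.30 ± 0.29, adjusted p = 6.55e-08 by edgeR) and HSPBAP1, whose product binds HSP27 (2.42 ± 0.39, adjusted p = 4.14e-06 by edgeR). HSPBAP1 was at 32.6 to 122 CPM in microglia and 10.7 to 16.4 CPM in macrophages, without overlap. In the other direction 0 of 47 passed, beside 10.1% of all genes, while at an adjusted p under 0.01 without the fold 19 (40.4%) were lower, beside 24.0% of all genes, and 6 (12.8%) higher, beside 23.5%. The median log2 difference of the list was -0.46 beside 0.06 over all genes. Among the lower genes were both chaperonin genes, HSPD1 (-0.57 ± 0.13) and HSPE1 (-1.17 ± 0.22), and HSP90AB1, the constitutive cytosolic HSP90 (-1.27 ± 0.11).

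Between hippocampal microglia and tissue, 3 of 47 (6.38%) were higher in microglia at an adjusted p under 0.01 and over 4-fold, beside 11.7% of all genes. They were HSPA1A/HSPA1B, HSPBAP1 (2.39 ± 0.36, adjusted p = 9.77e-07 by edgeR) and FKBP5, a glucocorticoid-induced co-chaperone of HSP90 (2.93 ± 0.34, adjusted p = 1.17e-08 by edgeR). In the other direction 10 of 47 (21.3%) were lower, beside 22.1% of all genes, a share near the background. Among these was CRYAB, a small heat shock protein abundant in glia, with 90.5 to 183 CPM in tissue and at most 3.01 CPM in hippocampal microglia. Without the fold threshold 30 (63.8%) were lower at an adjusted p under 0.01, beside 37.0% of all genes, and 7 (14.9%) higher, beside 32.2%. The 30 included HSPD1, HSPE1, HSP90AB1, DNAJA1 and STIP1, and the 7 included HSPA6, BAG3 and HSP90B1. HSPA6 (1.37 ± 0.34, adjusted p = 0.000561 by edgeR) is an inducible HSP70 and BAG3 (0.58 ± 0.15, adjusted p = 0.00135 by edgeR) is its stress-induced cofactor. HSF1, the factor that drives the heat shock response, had a log2 difference of 0.07 ± 0.27 from tissue and did not pass.

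Of the immediate early genes, 3 differed between regions, each with its highest mean among microglia in the cerebellum, as HSPB1 had. Of 32 such genes with an identifier, 29 were tested, and 3 (10.3%) passed the F test of the 3 regions, beside 2.03% of all genes. They were JUN, a subunit of AP-1 (adjusted p = 0.00373), EGR2, a zinc finger factor (adjusted p = 0.00066) and KLF2, a factor of resting endothelium and myeloid cells (adjusted p = 0.00338), by edgeR. In the same F test 18 of the 29 (62.1%) had an unadjusted p under 0.05, beside 25.9% of all genes. The median log2 difference over the 29 genes was 0.38 between cerebellum and frontal cortex (22 positive, 7 negative), beside -0.03 over all genes tested. Between cerebellum and hippocampus it was 0.58 (25 positive, 4 negative), beside 0.02 over all genes.

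JUN ranged from 156 to 502 CPM in cerebellar, 63.3 to 253 CPM in frontal cortex and 108 to 242 CPM in hippocampal microglia, and it was higher in the cerebellum in 6 of 6 pigs against the frontal cortex and in 4 of 4 against the hippocampus. EGR2 ranged from 6.84 to 38.6 CPM in the cerebellum, with 7 of 8 libraries above every library of the other regions, which ended at 10.5 CPM. KLF2 ranged from 18.1 to 45.2 CPM in the cerebellum and 7.39 to 25.2 CPM elsewhere in the microglia. With the pig as a fixed replicate block in edgeR none of the 3 passed, with adjusted p = 0.0152 for JUN, 0.0106 for EGR2 and 0.0422 for KLF2, and 85 of all genes did. With the pig as a random replicate block in limma all 3 passed, and 333 of all genes did. Without the 4 libraries rich in neuron markers EGR2 and KLF2 passed by edgeR and JUN did not (adjusted p = 0.0263). Without the cerebellar library of pig 12847, which had the highest JUN (502 CPM), 1 immediate early gene passed.

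**Figure D5:**
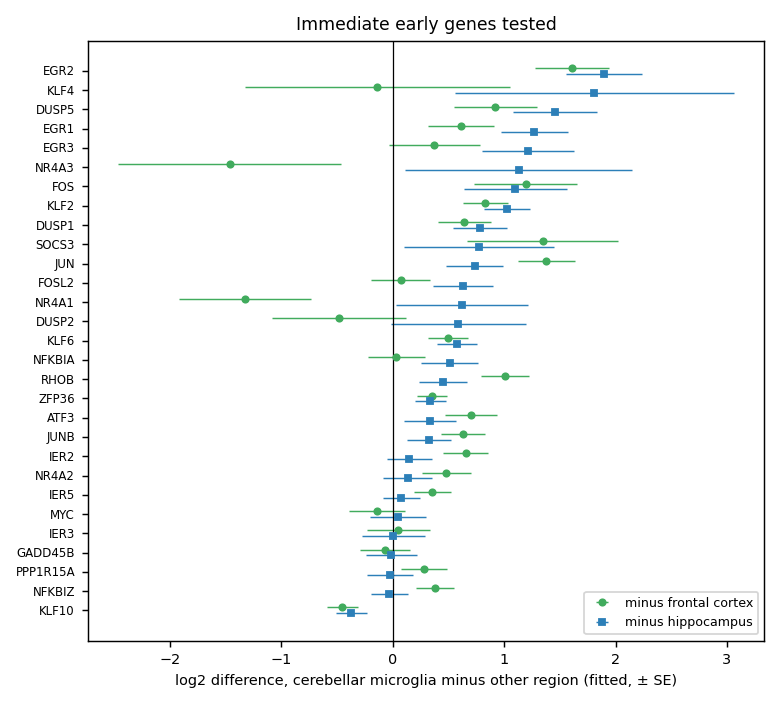
Fitted log2 differences (± SE) of the 29 tested immediate early genes, cerebellar minus frontal cortex (circles) and minus hippocampal microglia (squares). EGR2 is at 1.61 and 1.90, and 22 and 25 of the 29 genes lie above 0.

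Within a region, HSPB1 was set against the summed level of the 29 immediate early genes, whose medians were 1551 CPM in cerebellar, 1248 in hippocampal and 1112 CPM in frontal cortex microglia. Pearson's r over the 8 pigs of a region was 0.22 in the cerebellum (exact permutation p = 0.644, Spearman's coefficient = 0.0, p = 1.0), 0.49 in the hippocampus (p = 0.191, Spearman = 0.43, p = 0.299) and 0.54 in the frontal cortex (p = 0.175, Spearman = 0.62, p = 0.115). With the summed other 51 heat shock genes r was 0.38 in the cerebellum (exact permutation p = 0.336, Spearman = 0.36, p = 0.389), 0.62 in the hippocampus (p = 0.113, Spearman = 0.71, p = 0.0576) and 0.42 in the frontal cortex (p = 0.292, Spearman = 0.52, p = 0.197). The sums weigh genes by level, and HSP90AA1 alone made up 28.4% of the heat shock sum in the cerebellum, 34.2% in the hippocampus and 32.1% in the frontal cortex. The top immediate early gene made up 16.1% to 18.6%, JUN in the cerebellum and KLF10 in the other regions. Adjusted over the 6 relations, the two-sided exact permutation p ran from 0.381 to 0.644 for r and from 0.345 to 1.0 for Spearman's coefficient. No relation of either kind was thus detectable with 8 pigs. Leaving out the 2 libraries farthest from the median sum gave r = -0.33, 0.92 and 0.38 for the immediate early genes and 0.29, 0.40 and -0.10 for the heat shock genes, in the order cerebellum, hippocampus, frontal cortex. The hippocampal value of 0.92 had an exact permutation p of 0.00417 over 6 libraries, and the sign in the cerebellum turned, so these relations changed with the 2 libraries left out. Whether the response to dissociation followed the region was not tested by the design, which holds no microglia taken without dissociation and no handling time for a library.

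Against alveolar macrophages 0 immediate early genes were higher and 11 of 29 (37.9%) were lower in microglia over 3-fold, beside 12.2% and 10.1% of all genes. The largest were KLF4 (-6.52 ± 1.05), NR4A3 (-5.81 ± 0.86) and SOCS3 (-4.85 ± 0.60), the first a myeloid zinc finger factor, the second an orphan nuclear receptor and the third a feedback inhibitor of cytokine signalling. SOCS3 was at 41.8, 48.6 and 78.3 CPM in macrophages and at most 7.73 CPM in microglia. Against tissue 9 of 29 were higher in hippocampal microglia over 4-fold, beside 11.7% of all genes. Lower over 4-fold were 6 of 29 (20.7%), beside 22.1% of all genes, a share near the background. The higher ones were led by IER3 (5.43 ± 0.47), NFKBIZ (3.65 ± 0.25) and IER2 (3.14 ± 0.29), and the lower ones by NR4A3 (-6.74 ± 1.29), KLF4 (-5.01 ± 1.49) and FOSL2 (-3.73 ± 0.32), all with the edgeR test. NFKBIZ, a regulator of NF-kB targets, was at 108 to 188 CPM in hippocampal microglia and 10.5 to 14.6 CPM in tissue. NR4A3 and KLF4 were near 0 in many microglia libraries, so the size of their differences depends on the fit.

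The genes whose log2 CPM ran most like HSPB1 over the 24 microglia libraries were FAM20C, a secretory kinase (Pearson r = 0.85), AEBP1 (r = 0.84), SLC2A5, the fructose transporter that marks microglia (r = 0.83), SLC15A3, a lysosomal peptide transporter (r = 0.82), and CTSD, the lysosomal protease cathepsin D (r = 0.82). These libraries share pigs and regions, and the r of these 5 genes fell to between 0.61 and 0.74 once each region's mean was removed. FAM20C averaged 254, 162 and 100 CPM in cerebellar, hippocampal and frontal cortex microglia, the regional order of HSPB1, but 34.5 CPM in macrophages, where HSPB1 was highest. AEBP1 averaged 65.1, 16.6 and 10.5 CPM in the same order of microglia, but had its highest mean, 92.1 CPM, in tissue. On the same measure HSPA1A/HSPA1B had r = 0.64 with HSPB1, DNAJB1 0.46, HSPA8 0.30, HSPH1 0.01 and HSP90AA1 -0.05. With each region's mean removed the order was another, with 0.49 for HSPA1A/HSPA1B, 0.43 for HSPA8, 0.39 for HSP90AA1, 0.29 for HSPH1 and 0.05 for DNAJB1.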

How the data were processed

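Total RNA libraries of 31 samples (Takara SMARTer stranded kit, paired-end reads of 50 bp) were trimmed, aligned to Sscrofa11.1 with Hisat2 and counted with StringTie by the authors, who deposited raw counts per Ensembl gene without normalization. All 31 count columns were matched to samples by title. The genes and lists were chosen with earlier results of these data known. Of the 5 genes named, those without an identifier in the supplementary gene names, and the list genes, were matched through Ensembl and RefSeq symbols. Of the lists, HSPB2, HSPA2, JUND and BTG2 matched no identifier and were not used here.

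A gene was tested if some group had more than 10 CPM in each of its samples (11633 of 31907). One model of the 5 groups, with TMM factors, was fitted with edgeR 4.0.16 in R 4.3.3 (robust quasi-likelihood test, Benjamini-Hochberg adjustment). Thresholds were an adjusted p of 0.01 and a fold of 3 against macrophages or 4 against tissue. Log2 CPM used a prior count of 2, and 3 counts correspond to 0.064 to 0.146 CPM, which covers counting error only. The tests were checked on simulated data. Named were HSPB1, the other 4 chosen genes, genes of the heat shock list, immediate early genes past the regional test, the 3 with the largest folds in each direction called elsewhere, and the 5 genes most like HSPB1.

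Replicates were separate pigs. No sample copied another, since the chi-square divided by its degrees of freedom was 29.6 or more for 2 samples of a group. Samples with the same tag number came from the same pig, which pairs them: deviations from the group means of 25 such pairs correlated by 0.0791 on average (-0.374 to 0.434), against -0.00499 for different pigs, and limma estimated a within-pig correlation of 0.205. Alternatives were limma-voom (limma 3.58.1), DESeq2 1.42.0, other scalings and filters, only the groups compared, the pig as a replicate block, an adjusted p under 0.05, and each sample left out. Exact permutation tests used numpy 2.4.6 in Python 3.11.15. Fold changes of the authors' own comparisons were not used.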

Additional observations from a re-analysis of the deposited data

Results flagged for a closer look

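Of 36 groups of 4 or 8 libraries searched over 9 genes, 3 held a library far from the rest by Dixon's criterion, and chance marks about 1 group in 20. DNAJB1 in the frontal cortex microglia of pig 12902 was 118 CPM, where the next highest library had 66.8 CPM. JUN in that library was 253 CPM, where the next had 138 CPM. JUN in the hippocampal tissue of pig 12829 was 185 CPM, where the next had 105 CPM. HSPB1 in the frontal cortex library of pig 12902 was 39.5 CPM, within its group.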

How the results depend on the processing

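The 5 HSPB1 differences stayed within 1 SD of the replicates under every alternative. Over the libraries left out in turn, HSPB1 ran from 0.76 to 0.96 (log2) for cerebellum minus frontal cortex from 0.49 to 0.68 for cerebellum minus hippocampus, and from -0.38 to -0.14 for frontal cortex minus hippocampus. In 9 of the 31 fits with a library left out, TMM took a tissue library as its reference. In the main fit it took hippocampal microglia of pig 12750. The fit without a macrophage library (pig 12984) was among these 9, and its frontal cortex minus hippocampus difference was -0.22. The part of the reference library in this value was not tested. HSPA8 against macrophages changed sign, from -0.14 to 0.0794, with the pig as a fixed replicate block, and HSPH1 there moved from -0.85 to -0.51. Scaling moved the median of all genes in hippocampal microglia against tissue by -0.21 (RLE) and 0.22 (no factors), so differences there are relative to that shift. The regional test called 0 heat shock genes, but 2 with DESeq2 (4.26%, beside 6.80% of all genes) and 2 at an adjusted p under 0.05. With a library left out it called 0 to 1. The 1 came without frontal cortex of pig 12599, frontal cortex of pig 12758 or hippocampal microglia of pig 12847. The regional test called 3 immediate early genes, but 6 with DESeq2 (20.7%, beside 6.80% of all genes) and 0 with the fixed replicate block (beside 0.731%). It called 4 with the random block in limma (13.8%, beside 2.86%). At an adjusted p under 0.05 it called 6, and with a library left out 1 to 4. With limma-voom it called 3 (10.3%, beside 1.93% of all genes), of which 2 were shared, since EGR2 had an adjusted p of 0.0133. Heat shock genes lower than in macrophages were 0, but 1 with limma-voom and 1 with the pig as a random replicate block in limma. Heat shock genes lower than in tissue were 10, but 6 with no factors. Immediate early genes lower than in tissue were 6, but 2 with only the groups compared. Neither replicate block moved another of these counts by over 1.5 times. Where no share of all genes is given for a setting, the change of the count cannot be set against all genes. Without the 2 farthest libraries, r of HSPB1 with the immediate early sum was -0.33 in the cerebellum and 0.92 in the hippocampus (p = 0.00417 by exact permutation), and with the heat shock sum -0.10 in the frontal cortex. The cause was not tested. Depth limits genes near 0 in microglia, such as KLF4, and 8 pigs per region limit the correlations.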
